A study of Homo sapiens with 3 samples.

Results

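The proteasome is the protease complex that degrades ubiquitin-tagged proteins, and its subunit genes were followed here across 3 RNA-seq libraries. Members were the protein-coding genes of the GENCODE v29 annotation whose symbol starts with PSMA, PSMB, PSMC, PSMD, PSME, PSMF or PSMG followed by a digit. The rule found 49 genes among the 58735 listed in each library. One of them, PSMC3IP, is a cofactor of meiotic recombination that carries the prefix only through its name, so 48 genes were sorted by role. The libraries came from cells labelled KG1a, a human acute myeloid leukemia line, that received short hairpin RNA by lentivirus. The TRAF7 knockdown group held 2 libraries from cells given a hairpin virus against TRAF7 (shTRAF7), called knockdown 1 and knockdown 2 below. The control group held 1 library from cells given a control hairpin virus (shCtrl) and labelled wild type. TRAF7 is a RING-domain ubiquitin ligase of the TNF receptor-associated factor family. The labels do not say whether the 2 knockdown libraries used different hairpins or came from separate cultures. The p-values below therefore measure how far these samples differ among themselves, and that spread may be only technical.

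The 26S proteasome has a hollow 20S core built from 2 outer rings of alpha subunits and 2 inner rings of beta subunits. The catalytic sites lie on the beta subunits PSMB5, PSMB6 and PSMB7, which cells exposed to interferon can replace with the inducible subunits PSMB8, PSMB9 and PSMB10. A 19S particle caps the core: its base holds a ring of ATPases that unfold substrates, and its lid removes ubiquitin. Dedicated chaperones assemble both parts, and cells make the subunits in matched amounts, in part through the transcription factor NFE2L1. Myeloma cells are known for their dependence on the complex, and proteasome inhibitors are in clinical use against them.

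Each library held between 16014485 and 16254461 reads assigned to genes. Levels are the deposited FPKM, fragments per kilobase of exon scaled to library size, which are per length and can be set side by side between genes. TRAF7 itself stood at 15.6 FPKM in knockdown 1 and 18.3 FPKM in knockdown 2, against 46.5 FPKM in the control. Both knockdown libraries were therefore low, at 33.6% and 39.4% of the control level, as labelled. Its fitted log2 fold change was -1.41 ± 0.19 (SE), with an adjusted p of 0.274 in limma, a linear model fitted across all genes with Benjamini-Hochberg adjustment. The data did not match the label of the cells on all markers, so the libraries are called here only by their label. CD34, the stem-cell antigen that KG1a cells are known to carry, was covered by 1 and 10 reads in knockdown 1 and knockdown 2 and by 0 reads in the control. The leukocyte genes PTPRC, at 5.60, 6.53 and 9.54 FPKM in knockdown 1, knockdown 2 and the control, and SPN, at 45.3, 32.9 and 46.2 FPKM in the same order, were present. The epithelial and stromal markers summed to 162 and 145 FPKM in the knockdown libraries, against 132 FPKM in the control, although KG1a is a myeloid line. Of these, EPCAM had 23.5 and 20.0 FPKM in the knockdown libraries, against 20.0 FPKM in the control. KRT8 had 68.9 and 60.9 FPKM in the knockdown libraries, against 49.0 FPKM in the control. KRT18 had 69.5 and 63.1 FPKM in the knockdown libraries, against 62.0 FPKM in the control, and all 3 genes are epithelial. The stromal and endothelial genes of the list were near 0. COL1A1 had 0.255 and 0.620 FPKM in the knockdown libraries, against 0.525 FPKM in the control. PECAM1 had 0.108 and 0.0872 FPKM in the knockdown libraries, against 0.198 FPKM in the control. COL1A2 had 1 read in knockdown 1 and 0 reads in the other libraries. The 7 erythroid markers summed to 231 and 203 FPKM in the knockdown libraries, against 97.5 FPKM in the control, and 4 of the 6 tested were higher in both. The 6 lymphoid markers summed to 6.20 and 8.45 FPKM in the knockdown libraries, against 9.55 FPKM in the control, and MS4A1 was at 0 in all 3. Reads in sense-intronic transcripts numbered 448.5 and 475.5 per 1e+06 assigned reads in the knockdown libraries, against 553.2 in the control. These marker and intronic levels moved with the groups, and their part in the results below was not tested.

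Proteasome transcripts were more abundant in both knockdown libraries than in the control. The 48 genes summed to 2355 FPKM in knockdown 1 and 2210 FPKM in knockdown 2, against 1688 FPKM in the control, which is 1.39 and 1.31 times the control sum. As a share of all assigned reads they took 0.731% (0.727 to 0.735) in knockdown 1 and 0.702% (0.698 to 0.706) in knockdown 2, against 0.577% (0.573 to 0.581) in the control. These are exact binomial 95% intervals, which cover counting error only, and the control interval lay below both others. In bulk RNA, a change in the number of cells and a change in RNA per cell cannot be told apart.

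Of the 48 genes, 43 passed the filter of a mean level of 1 FPKM or more. Of these, 39 were higher in both knockdown libraries than in the control, where 42.5% of all 12640 genes tested were. PSME1 and PSMB10 were lower in both, against 30.8% of all genes tested, and PSMB9 and PSMG4 were split. The background depends on the level, because well-expressed genes were more often higher. Among protein-coding genes averaging 10 FPKM or more, 62.6% were higher in both and 16.1% were lower in both. Of the 39 proteasome genes at that level, 38 were higher in both and 1 was lower in both. Both knockdown libraries were compared with the same control, so an error in that 1 library moves every gene's 2 differences together.

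The size of the difference was moderate. The median fitted log2 fold change over the 43 genes was 0.38, against 0.040 over all genes tested and 0.16 over protein-coding genes averaging 10 FPKM or more. Relative to the all-gene median, the proteasome median was 0.34 as deposited, 0.32 scaled to all assigned reads and 0.18 after quantile normalization. Knockdown 1 alone had a median of 0.41 for the proteasome genes and knockdown 2 alone had 0.31. Ratios to the control ran between 0.554 and 1.82 in knockdown 1, and between 0.652 and 1.69 in knockdown 2. Knockdown 1 stood above knockdown 2 for 34 of the 43 genes, or 79.1%, against 54.7% of all genes tested.

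No proteasome gene passed the adjusted threshold of 0.05. In limma on log2(FPKM + 1), 0 of 12640 genes were called, and the percentage called was therefore 0 in each direction. The smallest adjusted p was 0.206 over all genes and 0.403 over the proteasome genes. At an unadjusted p under 0.05, 18 proteasome genes were higher and 1, PSMB10, was lower, where 5.46% of all genes tested were higher and 3.73% were lower. All 18 higher genes were among the 39 averaging 10 FPKM or more, and 10.6% of protein-coding genes at that level were higher. With 2 libraries against 1, an exact permutation test of a single value cannot go below p = 0.333. The spread comes from the 2 knockdown libraries alone, and the lone control is assumed to vary like them. In limma-voom, which weights genes by the reads recovered from the FPKM, 31 genes were higher (0.206% of 15034) and 99 were lower (0.659%). At an unadjusted p under 0.05 limma-voom had 21 proteasome genes higher, against 5.73% of all genes it tested and 15.7% of protein-coding genes averaging 10 FPKM or more. After adjustment PSMB6 was the only proteasome gene called there, and that call was lost when libraries were scaled to total reads (adjusted p = 0.607).

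Counting error was small beside the differences of most of the tested genes. The 95% Poisson intervals of both knockdown libraries lay above the control interval for 31 of the 43 genes, against 16% of all genes tested and 38.2% of protein-coding genes averaging 10 FPKM or more. They lay below the control interval for 1 gene, PSMB10, against 7.81% of all genes tested, and for 0 of the 39 at 10 FPKM or more, against 6.82% of protein-coding genes at that level. For PSMA1, PSMB9, PSMD5, PSMD7, PSMD9, PSMD10, PSME1, PSME2, PSME4, PSMG2 and PSMG4 the control interval overlapped that of at least 1 knockdown library. The Poisson intervals describe reads in these libraries and say nothing of the spread between cultures.

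**Figure D1:**
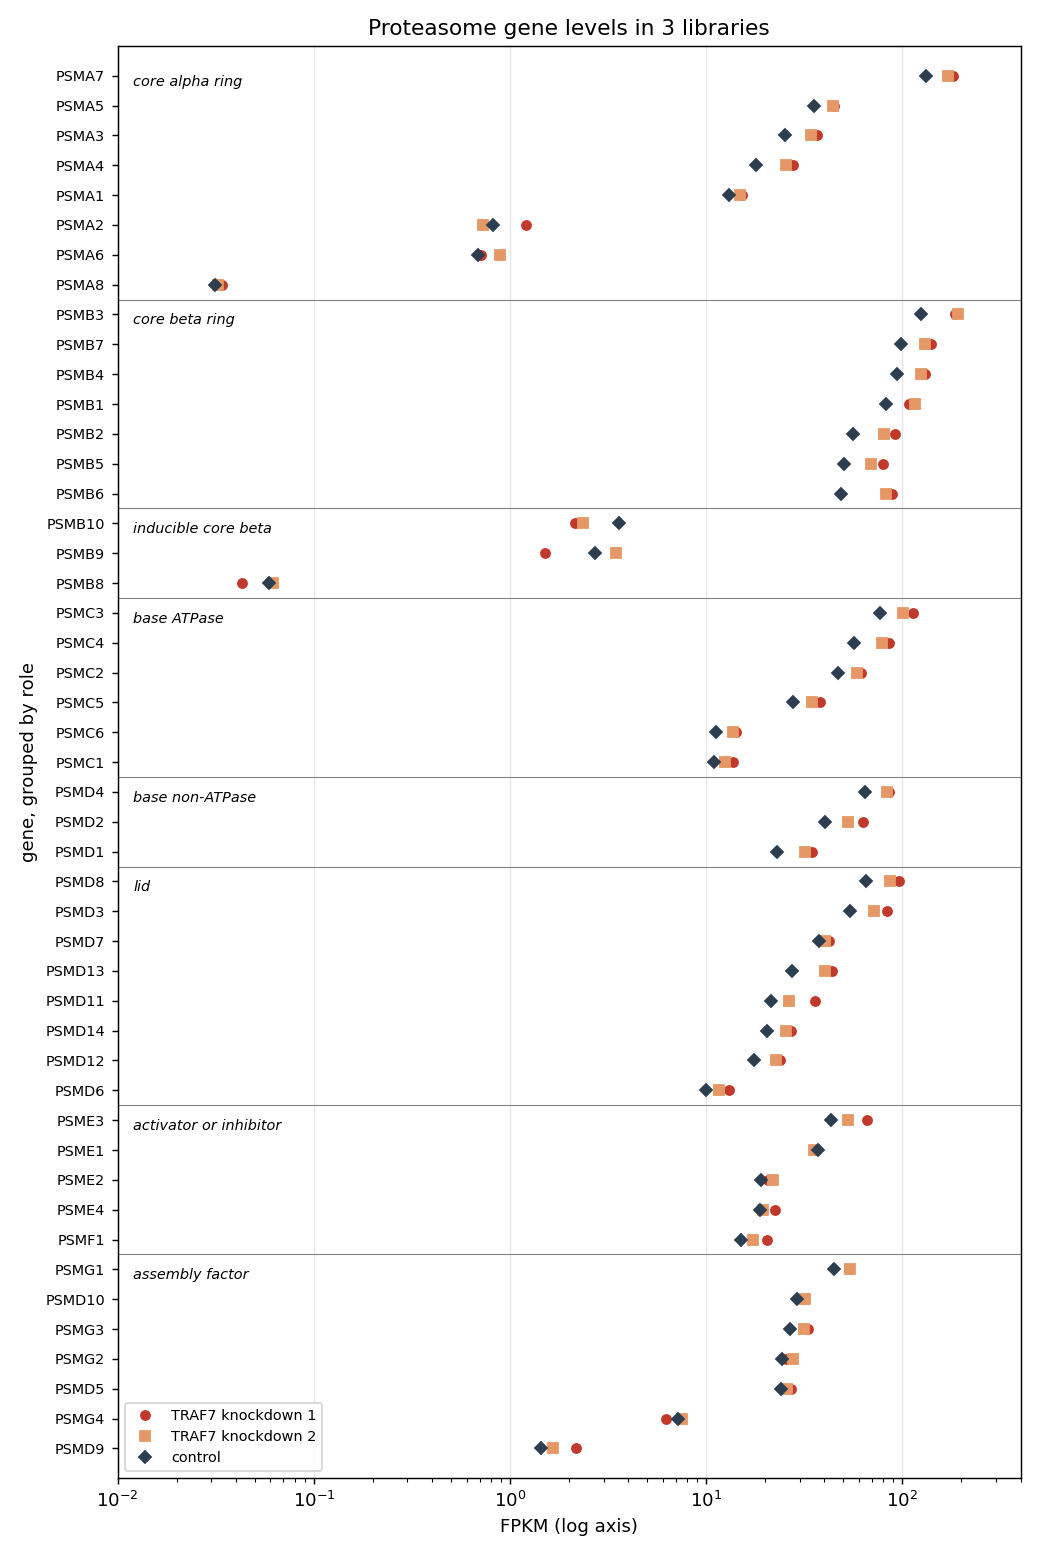
FPKM of the proteasome genes in knockdown 1, knockdown 2 and the control, on a log axis, grouped by role. Points are single libraries, and PSMB11, at 0 in all 3, is not drawn. Every beta ring, base and lid gene has both knockdown points to the right of the control point, while PSMB10 has both to its left.

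**Figure D2:**
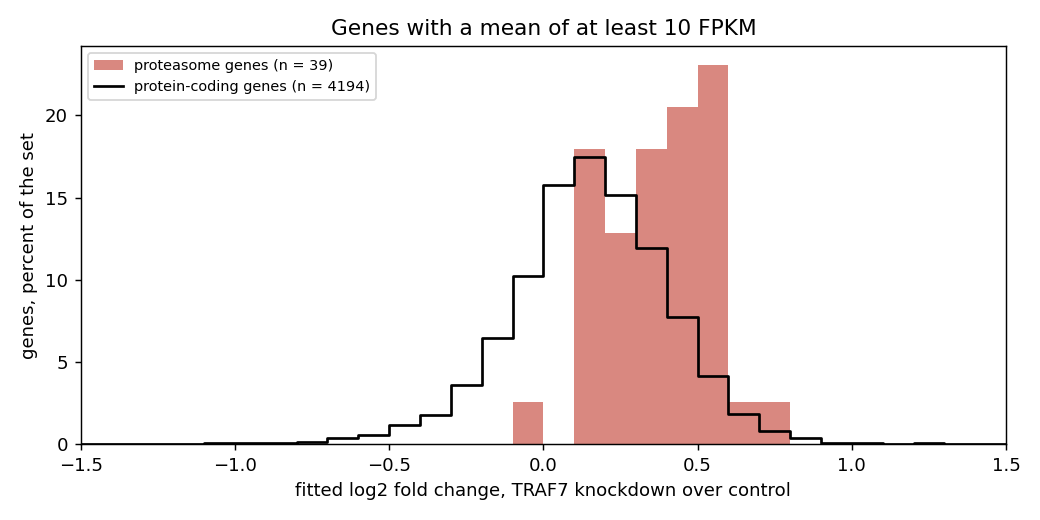
Fitted log2 fold change, TRAF7 knockdown over control, of genes averaging 10 FPKM or more, as the percentage of each set per bin. The filled bars are the 39 proteasome genes and the line the 4194 protein-coding genes, and the bars lie to the right, with medians of 0.39 and 0.16.

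Proteasome genes are spread over the genome, so their starts were read for shared short sequences. RefSeq windows of 300 bases, from 250 before to 50 after each gene's start on GRCh38.p14, matched 42 of the 48 genes with 51 windows. Both strands were searched for TGACNNNGC, the core of the antioxidant response element bound by NFE2L1 and NFE2L2 with small MAF proteins, and for CCAAT, the box bound by NF-Y. The 2 motifs are separate letters and were counted independently. TGACNNNGC was found in 15 of 42 genes (35.7%), against 16.1% of all 27305 genes with a window. CCAAT was found in 20 of 42 genes (47.6%), against 39.7% of all genes. A match is a run of letters and was not shown to be bound.

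The windows of PSMB3, PSMC4, PSMD1, PSMD3, PSMB9 and PSMB10 are printed because they cover a constitutive gene of the core, the base ATPases, the other base subunits and the lid that holds TGACNNNGC, and the 2 inducible core genes that passed the filter. Capitals mark TGACNNNGC, CCAAT or their reverse complements, and all are written 5′ to 3′ on the gene's strand. The PSMB3 window is chr17:38752491-38752790 (plus strand). Its TGACTTTGC begins 104 bases before the start, ahead of 2 CCAAT boxes. The PSMC4 window is chr19:39970915-39971214 (plus strand), with GCTTGGTCA beginning 27 bases after the start. The PSMD1 window is chr2:231056617-231056916 (plus strand), with TGACTGAGC beginning 39 bases after the start. The PSMD3 window is chr17:39980557-39980856 (plus strand), with TGACTCGGC beginning 37 bases before the start, GCTCCGTCA beginning 33 bases after the start and ATTGG beginning 217 bases before the start. The PSMB9 window is chr6:32853942-32854241 (plus strand), with GCCTCGTCA beginning 148 bases before the start and CCAAT beginning 243 bases before the start. It follows a RefSeq start that lies inside the GENCODE span of PSMB9. The PSMB10 window is chr16:67936801-67937100 (minus strand) and holds neither motif.
PSMB3: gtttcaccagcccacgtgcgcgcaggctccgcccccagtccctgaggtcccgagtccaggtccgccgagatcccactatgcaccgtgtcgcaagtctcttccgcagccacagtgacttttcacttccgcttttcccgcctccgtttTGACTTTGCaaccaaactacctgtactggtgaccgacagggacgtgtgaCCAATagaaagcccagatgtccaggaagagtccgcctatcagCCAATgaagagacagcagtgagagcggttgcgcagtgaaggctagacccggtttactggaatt
PSMC4: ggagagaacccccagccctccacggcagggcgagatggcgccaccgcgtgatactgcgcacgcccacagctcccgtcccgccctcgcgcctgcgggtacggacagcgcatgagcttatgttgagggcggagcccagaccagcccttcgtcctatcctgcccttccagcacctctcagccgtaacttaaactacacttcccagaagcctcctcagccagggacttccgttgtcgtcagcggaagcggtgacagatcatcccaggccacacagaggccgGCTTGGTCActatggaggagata
PSMD1: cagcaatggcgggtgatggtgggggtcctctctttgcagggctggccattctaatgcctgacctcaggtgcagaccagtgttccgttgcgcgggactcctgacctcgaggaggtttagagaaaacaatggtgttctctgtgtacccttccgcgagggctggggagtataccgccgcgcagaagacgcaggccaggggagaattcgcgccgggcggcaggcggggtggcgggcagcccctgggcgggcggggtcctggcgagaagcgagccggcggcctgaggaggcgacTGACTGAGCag
PSMD3: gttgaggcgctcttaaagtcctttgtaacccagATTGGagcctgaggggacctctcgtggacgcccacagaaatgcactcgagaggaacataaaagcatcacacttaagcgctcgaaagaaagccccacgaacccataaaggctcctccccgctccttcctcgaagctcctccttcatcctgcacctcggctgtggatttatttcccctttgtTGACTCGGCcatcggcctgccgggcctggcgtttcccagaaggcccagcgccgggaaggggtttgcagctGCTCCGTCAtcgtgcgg
PSMB9: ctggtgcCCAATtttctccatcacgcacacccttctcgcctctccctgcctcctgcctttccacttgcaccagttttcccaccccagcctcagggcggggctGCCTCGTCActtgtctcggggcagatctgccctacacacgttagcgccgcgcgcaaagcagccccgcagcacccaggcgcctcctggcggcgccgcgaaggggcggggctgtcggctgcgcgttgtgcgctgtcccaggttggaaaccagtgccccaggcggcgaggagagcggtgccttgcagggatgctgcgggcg
PSMB10: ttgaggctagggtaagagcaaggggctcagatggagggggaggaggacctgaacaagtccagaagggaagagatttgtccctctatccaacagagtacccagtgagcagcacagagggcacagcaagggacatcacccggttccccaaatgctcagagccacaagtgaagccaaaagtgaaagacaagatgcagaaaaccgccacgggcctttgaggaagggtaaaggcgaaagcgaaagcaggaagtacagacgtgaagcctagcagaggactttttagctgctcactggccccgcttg

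PSMA7, PSMB1, PSMB6, PSMB7, PSMD4 and PSMG3 had no window and are left out of the following counts. Among the tested genes with a window, those with TGACNNNGC did not have the larger median. The 15 tested genes with the motif had a median fitted log2 fold change of 0.25, and 13 of them were higher in both knockdown libraries. The 22 tested genes without it had a median of 0.35, and 20 were higher in both. For CCAAT the medians were 0.41 over 18 genes with it and 0.24 over 19 genes without it. The groups also differ in role. Those with TGACNNNGC include PSMD5, PSMD9, PSMG1, PSMG2, PSME1, PSME2, PSME4 and PSMB9. Those without it include PSMD10, PSMG4, PSME3, PSMF1 and PSMB10. These are assembly, activator or inhibitor, and inducible genes, the roles with the lowest medians below. Of these genes, only PSMD10, PSMG1, PSME3 and PSMB9 had CCAAT. Motif and role therefore cannot be told apart in these medians, which are descriptions of small groups that share their libraries.

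The alpha ring gates the entry to the core. Of its 8 genes 5 were tested, and all 5 were higher in both knockdown libraries, with a median fitted log2 fold change of 0.41, and 0.16 after quantile normalization. PSMA4 (chr15:78540405-78552419, plus strand) had the highest, with 27.6 FPKM in knockdown 1 and 25.6 FPKM in knockdown 2, against 18.0 FPKM in the control. Its log2 fold change was 0.54 ± 0.18 (SE), with a limma adjusted p of 0.491. PSMA1 (chr11:14504874-14643635, minus strand) had the lowest of the 5, with 15.2 and 14.8 FPKM in the knockdown libraries, against 13.1 FPKM in the control, and a log2 fold change of 0.18 ± 0.18 (SE). The control interval of PSMA1, 12.2 to 14.1 FPKM, overlapped that of knockdown 2, 13.8 to 15.9 FPKM. Another gene on the same strand covers 24.7% of the PSMA1 exons, and its part in the PSMA1 value was not tested. The most abundant of the ring, PSMA7, had 180 and 170 FPKM in the knockdown libraries, against 131 FPKM in the control. PSMA3 and PSMA5 lay between these, with log2 fold changes of 0.47 and 0.32.

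The other alpha genes were barely covered. PSMA2 had 1.20 and 0.726 FPKM in the knockdown libraries, against 0.821 FPKM in the control. PSMA6 had 0.711 and 0.888 FPKM in the knockdown libraries, against 0.683 FPKM in the control. Both encode constitutive ring subunits, yet their levels were far below the 13.1 FPKM of the lowest tested alpha gene. Exons of other annotated genes cover 34.6% of the PSMA2 exons and 14.1% of the PSMA6 exons, and the annotation holds 3 PSMA2 pseudogenes and 4 PSMA6 pseudogenes. The sources used here do not say how reads that fit several places were counted, and the part this played in the low levels was not tested. PSMA8, the testis form of an alpha subunit, had 1 read in each library.

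All 7 constitutive beta genes were higher in both knockdown libraries, all 7 had both knockdown intervals above the control interval, and all 7 had an unadjusted limma p under 0.05. Among protein-coding genes averaging 10 FPKM or more, the shares that were higher by these measures were 62.6%, 38.2% and 10.6%. The median fitted log2 fold change of the 7 beta genes was 0.54, and 0.33 after quantile normalization. They summed to 824.8 and 794.1 FPKM in the knockdown libraries, against 554.6 FPKM in the control. PSMB6 (chr17:4796144-4798503, plus strand) encodes the caspase-like catalytic subunit. It had 89.0 FPKM in knockdown 1 and 82.5 FPKM in knockdown 2, against 48.8 FPKM in the control. Both knockdown values lay well above the control interval of 46.1 to 51.6 FPKM. Its log2 fold change was 0.80 ± 0.16 (SE) with a limma adjusted p of 0.403, and 0.81 with an adjusted p of 0.0366 in limma-voom.

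PSMB5, the chymotrypsin-like subunit and main target of bortezomib, had 79.8 and 69.0 FPKM in the knockdown libraries, against 50.6 FPKM in the control. Its log2 fold change was 0.54 ± 0.17 (SE), with a limma adjusted p of 0.490. PSMB7, the trypsin-like subunit, had 141 and 130 FPKM in the knockdown libraries, against 98.4 FPKM in the control, and a log2 fold change of 0.45 ± 0.15 (SE). All 3 constitutive catalytic genes thus stood higher in both knockdown libraries. Of the non-catalytic beta subunits, PSMB4 (chr1:151399534-151401944, plus strand) had the lowest log2 fold change, 0.44 ± 0.15 (SE), from 130 and 124 FPKM in the knockdown libraries and 93.5 FPKM in the control. PSMB2 had 92.0 and 80.5 FPKM in the knockdown libraries, against 56.1 FPKM in the control. PSMB3, whose window is printed above, had 185 and 192 FPKM in the knockdown libraries, against 125 FPKM in the control. PSMB1 had 109 and 116 FPKM in the knockdown libraries, against 82.3 FPKM in the control. For PSMB1 and PSMB3 knockdown 2 was the higher of the pair, unlike the other 5 beta genes.

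The inducible beta genes were scarce and did not share the pattern. PSMB10 (chr16:67934502-67937087, minus strand), the inducible counterpart of PSMB7, had 2.15 and 2.36 FPKM in the knockdown libraries, against 3.61 FPKM in the control. Both knockdown values were low, and its log2 fold change was -0.50 ± 0.20 (SE), with a limma adjusted p of 0.537. Another gene on the same strand covers 34.8% of the PSMB10 exons. PSMB9 (chr6:32844136-32859585, plus strand), the counterpart of PSMB6, had 1.51 FPKM in knockdown 1 and 3.48 FPKM in knockdown 2, against 2.72 FPKM in the control. The knockdown libraries thus lay on either side of the control, and the log2 fold change was -0.15 ± 0.36 (SE). Without knockdown 1 it was 0.27. PSMB8, the counterpart of PSMB5 and the neighbour of PSMB9, had 2 and 3 reads in the knockdown libraries and 3 reads in the control, which allows no comparison. PSMB11, the thymus-specific subunit, had 0 reads in all 3, which allows up to 0.0914 and 0.0874 FPKM in the knockdown libraries and 0.0842 FPKM in the control at a floor of 3 reads.

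The inducible genes therefore made up a smaller part of catalytic subunit RNA. PSMB8, PSMB9 and PSMB10 together took 1.18% of the FPKM of the 6 catalytic genes in knockdown 1 and 2.05% in knockdown 2, against 3.13% in the control. The share was lowest in knockdown 1, where PSMB9 was lowest, and the sums rest on 136 and 248 inducible reads in the knockdown libraries and 257 in the control. The constitutive sum of PSMB5, PSMB6 and PSMB7 was 309 and 281 FPKM in the knockdown libraries, against 198 FPKM in the control. The inducible sum was 3.70 and 5.90 FPKM in the knockdown libraries, against 6.39 FPKM in the control. In knockdown 2 the inducible reads were close to those of the control, and the constitutive sum was the part that differed.

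**Figure D3:**
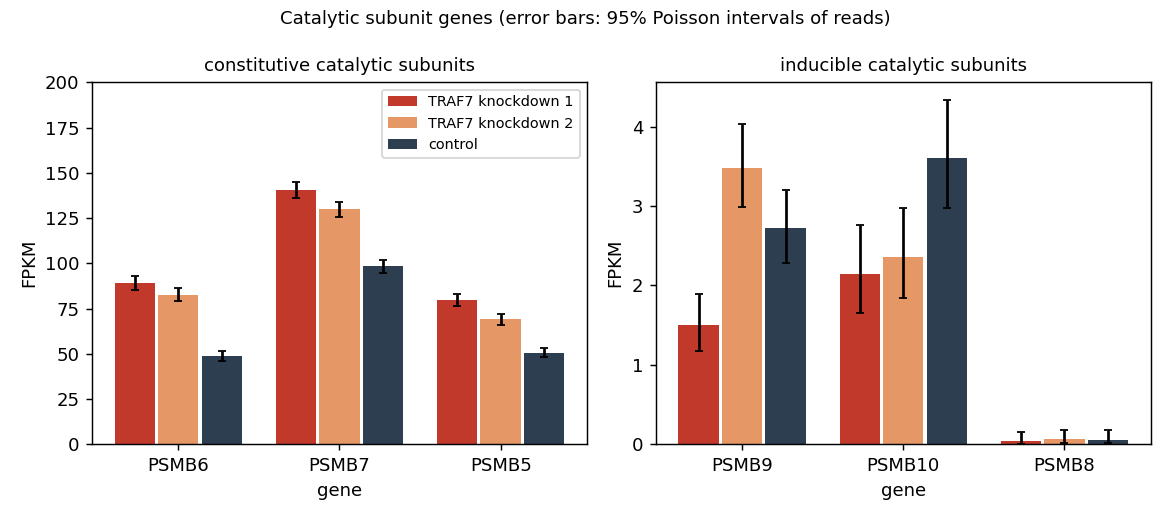
FPKM of the constitutive catalytic genes (left) and of the inducible ones (right) in knockdown 1, knockdown 2 and the control, on linear axes of different range. Bars are single libraries and error bars 95% Poisson intervals of the reads. PSMB5, PSMB6 and PSMB7 are higher in both knockdown libraries, PSMB10 is lower in both, and PSMB9 lies on either side of the control.

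The base was higher throughout. All 6 ATPase genes were higher in both knockdown libraries, with a median fitted log2 fold change of 0.36, and 0.20 after quantile normalization. PSMC4 (chr19:39971005-39981441, plus strand) had the highest, with 85.0 and 78.9 FPKM in the knockdown libraries, against 57.0 FPKM in the control. Its log2 fold change was 0.52 ± 0.16 (SE), with a limma adjusted p of 0.476. PSMC1 (chr14:90256495-90275429, plus strand) had the lowest, with 13.7 and 12.5 FPKM in the knockdown libraries, against 11.0 FPKM in the control, and a log2 fold change of 0.23 ± 0.18 (SE). Exons of NRDE2, on the opposite strand, cover 75.8% of the PSMC1 exons. The sources used here do not say whether counting used strand, so the PSMC1 value is uncertain. PSMC2, PSMC3, PSMC5 and PSMC6 lay between, with log2 fold changes of 0.30 to 0.47. Exons of FTSJ3, on the opposite strand, cover 19.5% of the PSMC5 exons. FTSJ3 had 24.6 and 16.2 FPKM in the knockdown libraries, against 13.0 FPKM in the control. The PSMC5 value is therefore uncertain for the same reason as that of PSMC1, and the part of FTSJ3 reads in it was not tested.

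The 3 non-ATPase base genes were also higher in both knockdown libraries, each with an unadjusted limma p under 0.05. Of protein-coding genes averaging 10 FPKM or more, 10.6% were higher at that p. The median fitted log2 fold change of the 3 genes was 0.51, and 0.32 after quantile normalization. PSMD1 (chr2:231056864-231172827, plus strand), a scaffold and docking subunit, had 34.8 and 31.8 FPKM in the knockdown libraries, against 23.0 FPKM in the control, and a log2 fold change of 0.51 ± 0.18 (SE). PSMD2, its scaffold partner, had 62.9 and 52.7 FPKM in the knockdown libraries, against 40.3 FPKM in the control. PSMD4 (chr1:151254703-151267479, plus strand), a ubiquitin receptor, had 85.7 and 83.3 FPKM in the knockdown libraries, against 64.5 FPKM in the control, and the lowest log2 fold change of the 3, 0.39 ± 0.15 (SE).

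All 8 lid genes were higher in both knockdown libraries, with a median fitted log2 fold change of 0.44, and 0.26 after quantile normalization. PSMD13 (chr11:236546-252984, plus strand) had the highest, with 43.9 and 40.3 FPKM in the knockdown libraries, against 27.4 FPKM in the control. Its log2 fold change was 0.60 ± 0.17 (SE), with a limma adjusted p of 0.453. PSMD7 (chr16:74296775-74306288, plus strand), the partner of the deubiquitinase, had the lowest, with 42.4 and 40.6 FPKM in the knockdown libraries, against 37.4 FPKM in the control. Its control interval overlapped that of knockdown 2, and its log2 fold change of 0.15 ± 0.17 (SE) was -0.047 after quantile normalization. Exons of another gene, on the opposite strand, cover 30.7% of the PSMD7 exons, so the PSMD7 value is uncertain like that of PSMC1. PSMD14, the deubiquitinase itself, had 26.9 and 25.6 FPKM in the knockdown libraries, against 20.4 FPKM in the control. PSMD11 had the widest gap between the knockdown libraries in the lid on the log2 scale, with 35.7 FPKM in knockdown 1 and 26.5 FPKM in knockdown 2, against 21.4 FPKM in the control. PSMD3, PSMD6, PSMD8 and PSMD12 had log2 fold changes of 0.28 to 0.51. Over the constitutive core, base and lid, 29 of 32 genes were tested and all 29 were higher in both knockdown libraries.

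**Figure D4:**
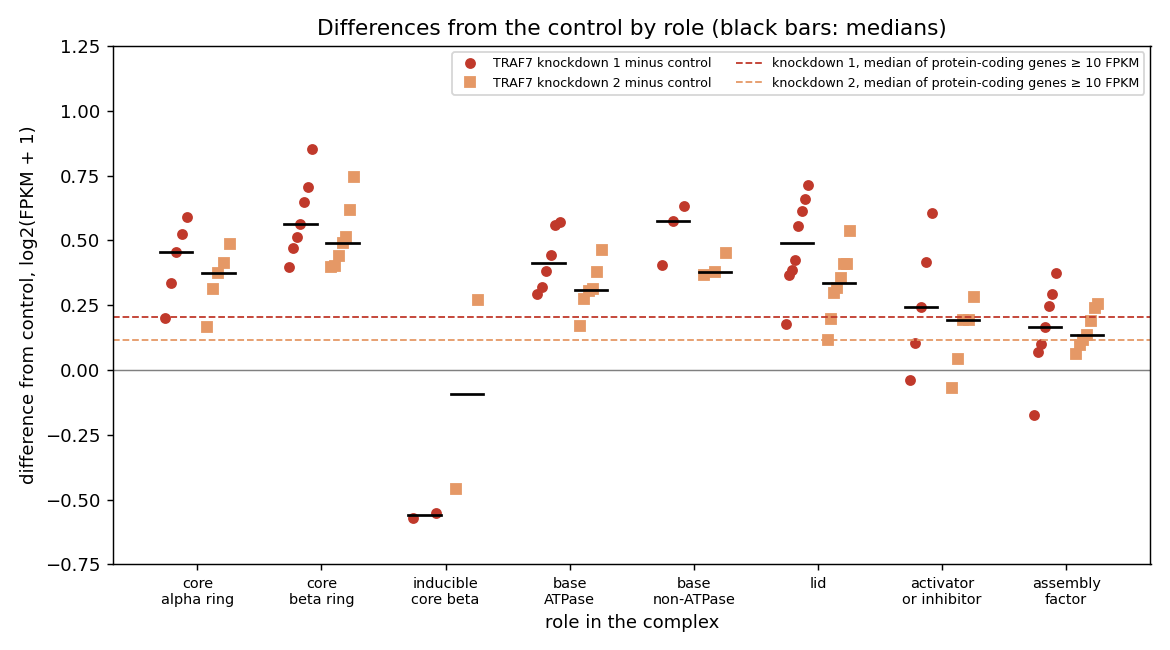
Difference from the control in log2(FPKM + 1) of each tested proteasome gene by role, for knockdown 1 (circles) and knockdown 2 (squares). Black bars are role medians and dashed lines the medians of protein-coding genes averaging 10 FPKM or more, 0.20 and 0.11. The beta ring medians, 0.56 and 0.49, and the other base medians, 0.58 and 0.38, lie above these lines, and the inducible beta medians, -0.56 and -0.094, lie below 0.

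The 5 activator and inhibitor genes had a median fitted log2 fold change of 0.15, and 4 of them were higher in both knockdown libraries. That median was 0.041 after quantile normalization and 0.049 scaled to all assigned reads. PSME1 and PSME2 form the interferon-inducible PA28 cap, and for both genes the control interval overlapped that of knockdown 1. PSME1 (chr14:24136158-24138967, plus strand) had 36.3 and 35.5 FPKM in the knockdown libraries, against 37.3 FPKM in the control, and a log2 fold change of -0.055 ± 0.17 (SE). PSME2 had 20.6 and 22.0 FPKM in the knockdown libraries, against 19.1 FPKM in the control. PSME3 (chr17:42824385-42843758, plus strand), the nuclear PA28 gamma, had 66.2 and 52.5 FPKM in the knockdown libraries, against 43.1 FPKM in the control. Its log2 fold change, 0.44 ± 0.20 (SE), was the highest of the 5, with a limma adjusted p of 0.566. PSME4, the PA200 activator, had 22.4 and 19.4 FPKM in the knockdown libraries, against 18.8 FPKM in the control. PSMF1, the PI31 inhibitor, had 20.3 and 17.3 FPKM in the knockdown libraries, against 15.0 FPKM in the control.

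The assembly factors had the lowest median of the constitutive roles, a fitted log2 fold change of 0.13 over 7 genes, and that median was -0.025 after quantile normalization and 0.031 scaled to all assigned reads. The values of PSMD5, PSMD10 and PSMG2 also turned below 0 after quantile normalization. PSMG3 (chr7:1567330-1571005, minus strand), a core chaperone, had the highest, with 33.0 and 31.7 FPKM in the knockdown libraries, against 26.7 FPKM in the control, and a log2 fold change of 0.27 ± 0.17 (SE). PSMG4 (chr6:3231403-3303373, plus strand), its partner, had the lowest, with 6.25 and 7.53 FPKM in the knockdown libraries, against 7.17 FPKM in the control, and a log2 fold change of -0.056 ± 0.19 (SE) that was 0.061 without knockdown 1. PSMG1, another core chaperone, had 53.6 and 54.0 FPKM in the knockdown libraries, against 45.0 FPKM in the control. PSMG2 and the base chaperones PSMD5, PSMD9 and PSMD10 had log2 fold changes of 0.12 to 0.24. Exons of other annotated genes cover 22.6% of the PSMD9 exons, 16.7% of the PSMG2 exons and 15.0% of the PSMG4 exons. The part of this overlap in their values was not tested. Intervals of both knockdown libraries lay above the control interval for 2 of the 7 assembly genes, against 7 of 7 in the beta ring. That share was 16% over all genes tested and 38.2% over protein-coding genes averaging 10 FPKM or more. The difference between roles was not tested. PSMC3IP, outside the roles, had 6.59 and 7.12 FPKM in the knockdown libraries, against 5.43 FPKM in the control.

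Proteasome parts and partners with other symbols were mostly higher. Of 10 genes tested, 9 were higher and 1 was lower in both knockdown libraries, with a median fitted log2 fold change of 0.28. The share higher in both was 42.5% of all genes tested and 62.6% of protein-coding genes averaging 10 FPKM or more. POMP, the core maturation protein, had 86.9 and 83.7 FPKM in the knockdown libraries, against 63.3 FPKM in the control. ADRM1, a ubiquitin receptor of the base, had 59.6 and 45.1 FPKM in the knockdown libraries, against 38.7 FPKM in the control. USP14, a deubiquitinase that binds the base, had 39.4 and 31.2 FPKM in the knockdown libraries, against 26.6 FPKM in the control.

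The transcription factors and regulators of proteasome genes were mixed, with 6 higher, 2 lower and 4 split of 12 tested and a median of 0.10. Scaled to all assigned reads, 3 were higher. NFE2L1, the factor that induces proteasome genes when the complex is impaired, had 29.1 and 34.7 FPKM in the knockdown libraries, against 36.2 FPKM in the control. KEAP1, the adaptor that targets NFE2L2 for degradation, had 35.7 and 31.7 FPKM in the knockdown libraries, against 26.8 FPKM in the control. Ubiquitin and shuttle genes were higher in both for 14 of 16 tested, with 0 lower and a median of 0.25. Among protein-coding genes averaging 10 FPKM or more, 62.6% were higher in both, with a median of 0.16, and 42.5% of all genes tested were. The ubiquitin gene UBB had 229 and 245 FPKM in the knockdown libraries, against 183 FPKM in the control. UFD1, a partner of the p97 ATPase, had 41.8 and 36.0 FPKM in the knockdown libraries, against 28.2 FPKM in the control.

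Antigen-processing and interferon partners ran the other way, with 2 higher and 4 lower of 7 tested and a median of -0.36. Scaled to all assigned reads, 1 was higher. Over all genes tested, 42.5% were higher and 30.8% were lower in both knockdown libraries. ERAP1, which trims peptides, had 6.50 and 7.27 FPKM in the knockdown libraries, against 10.1 FPKM in the control. No gene of these lists was called by limma after adjustment. For comparison, the lid-like COP9 signalosome was higher in both knockdown libraries for 10 of 10 genes, with a median of 0.29. The unrelated CCT chaperonin was higher for 8 of 8 genes, with a median of 0.40. Both complexes were thus higher in the knockdown libraries as well. Among protein-coding genes averaging 10 FPKM or more, 62.6% were higher in both, with a median of 0.16.

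**Figure D5:**
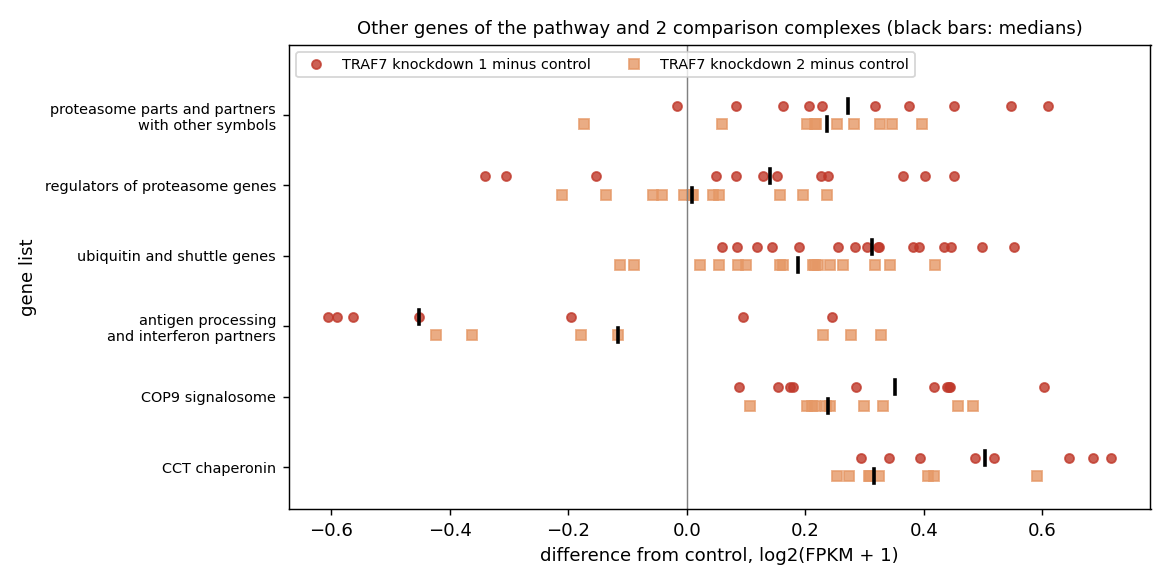
Difference from the control in log2(FPKM + 1) of each tested gene of the related lists, for knockdown 1 (circles) and knockdown 2 (squares), with black bars for medians. All COP9 and CCT points lie above 0, and the medians of the antigen-processing list, -0.45 and -0.12, lie below 0.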

How the data were processed

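The 3 libraries were sequenced from total RNA. The deposited files give 1 FPKM value per gene made by the authors, and per the submitters' processing notes BWA, Bowtie and the hg19 build were named, and the counting program is not named in the sources used here. All 58735 gene IDs matched GENCODE release 29, and deposited FPKM times summed exon length gave whole reads for 100% of values above 0, within 0.05 of a read. The implied divisors of the 3 libraries are 0.963 and 1.01 (knockdown 1 and 2) and 1.04 (control) times the mean total, so the authors' FPKM carry a scaling between libraries. Groups were taken from the labels. The main test was limma 3.58.1 in R 4.3.3 on log2(FPKM + 1) with variance moderated along a trend in level. It kept the genes averaging 1 FPKM or more, Benjamini-Hochberg adjusted over all genes tested at 0.05, with 1 residual degree of freedom. Fold changes on that scale understate low genes. Limma-voom on recovered reads (mean of at least 10) and other scalings, filters and pseudocounts were alternatives. The main limma fit and limma-voom with total-read scaling were run on simulated data, and the other alternatives were not. The members and lists were chosen with earlier results of these data known. TRAF7 and every member were named, in full for the catalytic genes and for the highest and lowest of each role, with at most 4 genes per other list by lowest p. Poisson and binomial intervals cover counting error only. Coordinates are those of GENCODE release 29 on GRCh38, and promoter windows are RefSeq's on GRCh38.p14.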

Additional observations from a re-analysis of the deposited data

How the results depend on the processing

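No paired analysis was possible because the control group holds 1 library, so the groups share fewer than 2 replicate numbers. Limma called 0 genes as reported; it called 3 when genes averaged 5 FPKM or more and 13 among protein-coding genes only, and limma-voom called 130. Of those 130, 1 was a proteasome gene, PSMB6, and the other alternatives called 0. The TRAF7 log2 fold change passed the threshold at -1.41 among protein-coding genes and at -1.46 in limma-voom. The number of proteasome genes higher in both knockdown libraries was 39, and 33 after quantile normalization and 35 scaled to assigned reads. Scaling moved the medians. Limma-voom with total-read scaling, added after seeing the data, had an all-gene median of -0.095, against 0.011 in limma-voom with the deposited scaling. Both of these fits covered 15034 genes. In limma on 12640 genes the all-gene median was 0.040 as reported, -0.048 scaled to assigned reads and -0.0044 after median-of-ratios rescaling. The proteasome median was 0.20 after quantile normalization, 0.28 scaled to assigned reads and 0.28 in limma-voom with total-read scaling; relative to all genes it was 0.38 in that fit. After quantile normalization the role medians were 0.16 (alpha), 0.33 (beta), 0.20 (base ATPase), 0.32 (other base), 0.26 (lid), 0.041 (activators) and -0.025 (assembly), the last turning round. Scaled to assigned reads they were 0.31 (alpha), 0.44 (beta), 0.26 (base ATPase), 0.049 (activators) and 0.031 (assembly). In limma-voom with total-read scaling they were 0.23 (alpha), 0.45 (beta), 0.26 (base ATPase), 0.051 (activators) and 0.032 (assembly). Median-of-ratios rescaling gave 0.49 (beta), 0.099 (activators) and 0.082 (assembly). The alpha median was 0.25 with no filter and 0.33 in limma-voom, where PSMA2 and PSMA6 enter. Leaving out 1 knockdown library gave 0.31 to 0.41 for all proteasome genes, 0.49 to 0.56 (beta), 0.38 to 0.58 (other base), 0.19 to 0.24 (activators) and 0.14 to 0.17 (assembly). Of the 43 proteasome genes, 4 turned round after quantile normalization: PSMD5 (-0.025), PSMD7 (-0.047), PSMD10 (-0.050) and PSMG2 (-0.030). Without knockdown 1, 2 turned round: PSMB9, at 0.27 (-0.57 without knockdown 2), and PSMG4, at 0.061 (-0.17 without knockdown 2). Regulators higher in both numbered 3 scaled to assigned reads and 3 in limma-voom with total-read scaling. Antigen-processing genes higher in both numbered 1 after quantile normalization, 1 scaled to assigned reads and 1 in limma-voom with total-read scaling. With TGANNNNGC, which contains every TGACNNNGC match, 28 of 42 genes had a match (66.7%), against 47.1% of all genes. Causes were not tested. Depth limits PSMA8, PSMB8 and PSMB11, at 3 reads or fewer.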

Other observations

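Non-coding genes named after proteasome genes lay outside the comparisons above. Of 37, 6 had a mean of at least 10 reads; 3 of these were lower in both knockdown libraries, 2 were higher in both and 1 was split. The 3 given here were chosen after their values were seen. PSMG3-AS1, a transcript antisense to PSMG3, had 0.131 and 0.542 FPKM in the knockdown libraries, against 1.03 FPKM in the control. PSMA3-AS1 had 3.20 and 3.29 FPKM in the knockdown libraries, against 4.30 FPKM in the control. PSMD6-AS2 had 0.916 and 0.951 FPKM in the knockdown libraries, against 0.916 FPKM in the control. PSMG3, PSMA3 and PSMD6 were each higher in both knockdown libraries, and none of these differences between partners was tested. Without knowing whether counting used strand, reads of such a gene and its partner cannot be told apart where their exons overlap. Exons of other annotated genes cover 0% of the PSMA3 exons, 3.06% of the PSMG3 exons and 7.83% of the PSMD6 exons.

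Among the 39 proteasome genes averaging 10 FPKM or more, more abundant genes tended to have a higher fitted log2 fold change (Spearman's rho 0.53, across genes). Over all 4194 protein-coding genes at that level rho was 0.23. Genes share the same 3 libraries and are not independent replicates, so these are descriptions.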
